A study of Mus musculus with 6 samples.

Results

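Interleukins and their receptors were described here in cultured liver cancer cells with and without knockdown of Ero1a, the endoplasmic reticulum oxidase that helps form disulfide bonds in secreted proteins. Members were taken as every row of the deposited table whose symbol begins with Il and a digit, apart from Il11, Il6 and their receptor chains, which gave 36 of 16217 genes. By their known roles, 12 encode ligands, 3 encode antagonists or soluble binding proteins, 20 encode receptor chains, and Il4i1b is named after induction by interleukin 4 and encodes neither a cytokine nor a receptor. The shERO1A group was made of Hepa1-6 cells, a mouse hepatoma line given in the labels as cancer cells, that had been transduced with a lentivirus for Ero1a knockdown and selected with puromycin as a stable line. The shNC group was the control of the same line, for which no separate protocol is given. Each group had 3 RNA-seq libraries, named KD1, KD2 and KD3 in the deposited table for shERO1A and numbered 1 to 3 for shNC. Nothing in the labels says that libraries of a group came from separate cultures, so the spread behind the p-values may be technical. Only 1 knockdown label is given, so loss of Ero1a and other differences between the stable lines cannot be told apart. In bulk RNA, fewer cells that express a gene and less of its RNA per cell cannot be told apart either.

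Interleukins are secreted proteins that carry signals mainly between leukocytes and epithelial or stromal cells, and many epithelial cells make some of them and carry receptors for others. Members of the IL-1 family bind receptors with an intracellular TIR domain and signal through MyD88 and NF-kB. Most other interleukin receptors are pairs of chains that signal through JAK kinases and STAT factors, and the pair, not the single chain, makes the working receptor. In liver, IL-22 and IL-6 type cytokines are known for inducing acute-phase and defence genes in hepatocytes.

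Between 38290505 and 39646829 reads per library lay behind the values, which are in FPKM, reads scaled to the length of the gene and to the reads of the library. Ero1a itself had 14.99, 15.98 and 15.69 FPKM in KD1, KD2 and KD3, against 37.8, 39.6 and 38.4 FPKM in shNC libraries. It fell to 15.6 ± 0.505 FPKM in shERO1A cells, against 38.6 ± 0.937 FPKM in shNC cells (SD, n = 3 each), or 40.3% of the shNC level (log2 fold change -1.26, limma adjusted p = 6.21e-06). Library KD3 stood apart: set against KD1 and KD2, its reads gave chi-square values of 58.8 and 44.9 for each degree of freedom, where KD1 and KD2 gave 5.95 and pairs of shNC libraries 4.10 to 4.57. Set against shNC libraries, KD1 and KD2 gave 29.3 to 31.6 and KD3 gave 78.2 to 81.8. By this measure KD3 differed more from KD1 and KD2 than KD1 and KD2 differed from the shNC libraries. Calls of members that change without KD3 are given both ways, and those in the lists of signalling genes below only as counts. Of 8 hepatoma and hepatocyte markers, 5 had a row, with summed levels of 2004 to 2196 FPKM in shERO1A libraries and 2494 to 2551 FPKM in shNC libraries. Nearly all of that was Krt8 and Krt18, with at least 948 and 987 FPKM in every library. Hnf4a and Apob had at least 27.7 FPKM in every library, Afp lay between 1.21 and 3.14 FPKM, and Alb, Ttr and Apoa1 had no row. Of 11 immune cell markers, 4 had a row, with sums of 2.18 to 3.32 FPKM in shERO1A libraries and 2.45 to 2.77 FPKM in shNC libraries, most of it Cd68. The pan-leukocyte gene Ptprc reached at most 0.0663 FPKM in any library. Of 7 fibroblast and endothelial markers, 5 had a row, with sums of 18.8 to 19.8 FPKM in shERO1A libraries and 10.4 to 11.1 FPKM in shNC libraries. Nearly all of that was Cdh5, while the endothelial genes Pecam1 and Kdr reached at most 0.151 and 0.119 FPKM. The part of these markers in the results on interleukins was not tested.

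Of the 36 members, 15 averaged 1 FPKM or more across the 6 libraries and were tested, as 4 ligands, 1 antagonist and 10 receptor chains. In shERO1A cells 6 of them fell, Il22ra1, Il5ra, Il18rap, Il1f9, Il1f6 and Il1rn, and Il34 rose, at a limma adjusted p under 0.05 over all 10296 genes tested. The other 8 did not pass the test. Over all genes tested 17.7% were called, 9.48% as higher and 8.23% as lower. Of the 15 members, 8 were called without KD3, when 27.7% of all genes tested were called, 5 without KD1 (15.9% of all genes) and 4 without KD2 (11.6%). Without shNC replicates 1, 2 and 3, calls among the members numbered 4, 4 and 5, when 9.46%, 9.28% and 9.25% of all genes were called. The median log2 change of the 15 members was -0.16, and that of all genes tested was 0.01. The groups did not overlap in 8 of the 15, 7 with lower and 1 with higher shERO1A values. Of all genes tested, 40% had groups that did not overlap, 21.5% with higher and 18.5% with lower shERO1A values. The lowest tested member was Il1f9, with a mean of 1.33 FPKM over the libraries, and the highest untested one was Il24, with a mean of 0.963 FPKM. Il1f9 passed the filter through its shNC libraries, since its shERO1A mean lay under 1 FPKM. Its fall is no support for these counts or for the median of the members, which all include it. The other 14 had both group means above 1 FPKM. Fold changes compare log2(FPKM + 1), which understates the change of low genes.

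The spans of other genes, introns included, overlap those of some members in the RefSeq annotation. Whether exons overlap was not checked, and whether reads were counted by strand was not stated. Some reads may therefore be shared, which was not tested. The members concerned are Il33, Il34, Il13ra1, Il7, Il1a and Il1rap, which overlap long noncoding RNAs, and Il18 and Il4i1b, which overlap protein-coding genes.

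**Figure D1:**
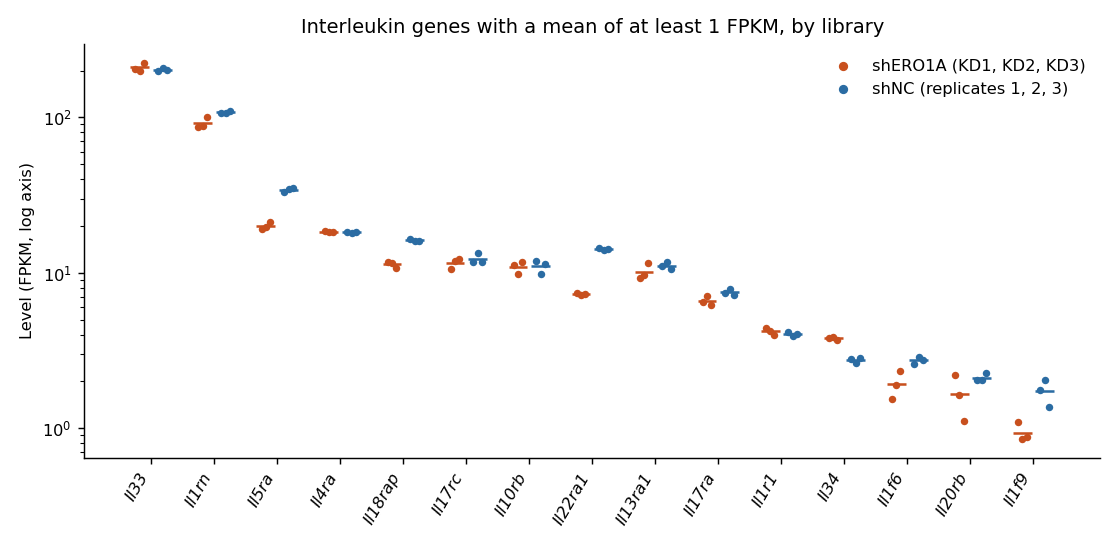
Level in FPKM on a log axis of the 15 interleukin genes that averaged 1 FPKM or more, for the 3 shERO1A libraries (left, orange) and the 3 shNC libraries (right, blue) of each gene; short lines are group means. Il33 and Il1rn lie above all others, and the groups stand clear of each other in Il5ra, Il18rap, Il22ra1 and Il34.

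Among ligands, the most abundant was Il33, an alarmin of the IL-1 family that is stored in the nucleus and released by damaged epithelial cells. It had 206, 199.8 and 224 FPKM in KD1, KD2 and KD3, against 198, 209 and 201 FPKM in shNC libraries. The groups overlapped, and KD3 was the highest library. Its log2 fold change was 0.05 (95% interval -0.08 to 0.18, limma adjusted p = 0.603), and its sign turned without KD3 and with quantile normalization. With means of 209.9 ± 12.9 FPKM in shERO1A and 203 ± 5.77 FPKM in shNC cells (SD, n = 3 each), it ranked 274th in shERO1A and 280th in shNC cells among the 16217 genes. Il33 made up 50.5% of the summed FPKM of the 36 members in shERO1A cells and 44.7% in shNC cells. Its receptor chain Il1rl1 (ST2) had only 0.200 to 0.314 FPKM in shERO1A libraries and 0.193 to 0.280 FPKM in shNC libraries.

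Il34 alone rose among the tested ligands. It encodes a cytokine that binds the CSF-1 receptor of macrophages. Il34 had 3.83, 3.89 and 3.69 FPKM in KD1, KD2 and KD3, against 2.81, 2.64 and 2.82 FPKM in shNC libraries. All 3 shERO1A libraries were above all shNC libraries. The means were 3.80 ± 0.103 FPKM in shERO1A and 2.76 ± 0.101 FPKM in shNC cells (SD, n = 3 each), or 138% of the shNC mean (log2 fold change 0.35, SE 0.06, limma adjusted p = 0.00617). The call was kept in all 12 alternatives run, which were other normalizations, filters and tests and the omission of each library, with adjusted p between 0.00326 and 0.0359. Csf1r, which encodes the CSF-1 receptor, averaged below 1 FPKM. It had 0.101, 0.235 and 0.104 FPKM in KD1, KD2 and KD3, against 0.325, 0.350 and 0.409 FPKM in shNC libraries. These values came from 15 to 35 reads in shERO1A and 49 to 61 reads in shNC libraries. The groups did not overlap, and Csf1r was called lower with the filter on reads, with no filter and with voom (limma adjusted p = 0.034, 0.0376 and 0.039).

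Both tested IL-36 cytokine genes fell, each from few reads. Il1f6 (IL-36 alpha) and Il1f9 (IL-36 gamma) encode epithelial alarmins of barrier tissues such as skin. Il1f9 had 1.09, 0.853 and 0.873 FPKM in KD1, KD2 and KD3, against 1.77, 2.05 and 1.37 FPKM in shNC libraries, from 54 to 129 reads per library. All shERO1A libraries were below all shNC libraries. It stood at 54.4% of its amount in shNC cells (log2 fold change -0.49, SE 0.11, limma adjusted p = 0.0195). Without KD2 and without shNC replicate 1 or 2 the call was lost (adjusted p = 0.0671, 0.0798 and 0.0749; range over the alternatives 0.0169 to 0.0798). For Il1f6, levels were 1.53, 1.89 and 2.34 FPKM in KD1, KD2 and KD3, against 2.59, 2.87 and 2.76 FPKM in shNC libraries, from 52 to 97 reads per library. The groups did not overlap, with KD3 nearest to shNC. Il1f6 stood at 70.0% of its amount in shNC cells (log2 fold change -0.37, SE 0.10, limma adjusted p = 0.0488). Of 12 alternatives, only leaving out KD3 kept that call (adjusted p = 0.00384), and in the others adjusted p reached 0.26.

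Il1rn encodes the IL-1 receptor antagonist, which occupies the IL-1 receptor without signalling, and came next to Il33 in abundance. It had 86.2, 88.3 and 100.5 FPKM in KD1, KD2 and KD3, against 106, 107 and 110.5 FPKM in shNC libraries. Every shERO1A library was below every shNC library, with KD3 nearest to them. The means were 91.7 ± 7.70 FPKM in shERO1A and 108 ± 2.42 FPKM in shNC cells (SD, n = 3 each), or 85.1% of the shNC mean (log2 fold change -0.23, SE 0.06, limma adjusted p = 0.0404). Without KD3 the log2 fold change was -0.30 (adjusted p = 0.000195). Keeping all genes without a filter ended the call (adjusted p = 0.0667), as did leaving out any library other than KD3, up to 0.153 without shNC replicate 3. In the RefSeq order of protein-coding genes on chromosome 2, Il1f9, Il1f6, Il1f5, Il1f10 and Il1rn lie in a row. The 3 members of the IL-1 family that fell as ligands or antagonist thus share a locus, which describes position only. Of 12 alternatives, the call of Il1f6 was lost in 11, that of Il1rn in 6 and that of Il1f9 in 3. Il1f9 also passed the filter through its shNC libraries, and Il1f10 was not among the genes of the deposited table. Il1f5, the antagonist gene of the IL-36 receptor, had 0 to 8 reads in shERO1A and 0 to 2 reads in shNC libraries.

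Among the 10 tested receptor chains the largest log2 change was that of Il22ra1. It encodes the chain that pairs with Il10rb to bind IL-22 and with Il20rb to bind IL-20 and IL-24, and it is known from epithelial cells and hepatocytes and not from leukocytes. Il22ra1 had 7.41, 7.15 and 7.30 FPKM in KD1, KD2 and KD3, against 14.5, 14.0 and 14.3 FPKM in shNC libraries. The libraries of each group lay close together and the groups far apart. Means of 7.29 ± 0.128 FPKM in shERO1A and 14.3 ± 0.244 FPKM in shNC cells (SD, n = 3 each) left 51.1% of the shNC mean (log2 fold change -0.88, SE 0.05, limma adjusted p = 3.69e-05). The call was kept in all 12 alternatives, with the highest adjusted p at 0.000711.

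The promoters of the 3 tested receptor genes with the largest falls, Il22ra1, Il5ra and Il18rap, are shown because each of these falls was called in all 12 alternatives. The sequences are those of RefSeq on GRCm38.p6, from 250 bases before to 50 bases after the gene start, 5′ to 3′ on the gene's strand, and 26 of the 36 members have an entry in that table. They lie at chr4:135727909-135728208 (Il22ra1, plus strand), chr6:106748988-106749287 (Il5ra, minus strand) and chr1:40515112-40515411 (Il18rap, plus strand). Capitals mark matches to the AP-1 motif TGANTCA.
Il22ra1: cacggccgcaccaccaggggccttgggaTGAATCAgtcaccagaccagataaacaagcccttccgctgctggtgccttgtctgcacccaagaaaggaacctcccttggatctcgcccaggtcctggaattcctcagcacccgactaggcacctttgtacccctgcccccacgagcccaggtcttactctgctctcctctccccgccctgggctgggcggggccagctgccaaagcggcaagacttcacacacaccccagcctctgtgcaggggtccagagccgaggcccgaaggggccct
Il5ra: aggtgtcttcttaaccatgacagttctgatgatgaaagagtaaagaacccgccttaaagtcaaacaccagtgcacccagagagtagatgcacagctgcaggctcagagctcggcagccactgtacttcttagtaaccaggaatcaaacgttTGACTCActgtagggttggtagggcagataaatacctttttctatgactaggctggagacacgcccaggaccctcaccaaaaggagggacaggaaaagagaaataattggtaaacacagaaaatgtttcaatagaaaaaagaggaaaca
Il18rap: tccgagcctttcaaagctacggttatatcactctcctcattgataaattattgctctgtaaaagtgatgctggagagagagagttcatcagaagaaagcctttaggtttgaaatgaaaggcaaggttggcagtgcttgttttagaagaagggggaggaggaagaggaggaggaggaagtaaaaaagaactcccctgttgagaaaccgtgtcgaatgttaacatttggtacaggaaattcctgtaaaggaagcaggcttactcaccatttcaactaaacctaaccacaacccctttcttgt
Both strands were searched for 4 motifs. The AP-1 motif TGANTCA, which reads the same on both strands, had 1 match in Il22ra1, 1 in Il5ra and none in Il18rap, and 7.81% of 32851 promoters of this length hold it. The STAT motif TTCNNNGAA, the NF-kB motif GGGANTTCC and the hypoxia response core ACGTG had no match in these windows, where 8.3%, 1.68% and 19.6% of promoters hold them. A match of letters is a description and no measured binding.

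The partner chains of Il22ra1 did not pass the test. Il10rb, shared by the receptors for IL-10, IL-22 and interferon lambda, had 11.3, 9.79 and 11.7 FPKM in KD1, KD2 and KD3, against 11.8, 9.79 and 11.5 FPKM in shNC libraries. Those groups overlapped (log2 fold change -0.01, 95% interval -0.22 to 0.19, limma adjusted p = 0.945), and the sign turned without KD2 or without shNC replicate 1 or 3. Il20rb had 2.20, 1.65 and 1.11 FPKM in KD1, KD2 and KD3, against 2.04, 2.03 and 2.28 FPKM in shNC libraries. KD1 lay among the shNC libraries and KD3 was the lowest of the 6 (log2 fold change -0.25, 95% interval -0.58 to 0.08, limma adjusted p = 0.266). The value of Il20rb rested on these libraries, with a log2 fold change of -0.10 without KD3 and -0.40 without KD1, neither of them called (adjusted p = 0.492 and 0.0585). The gene before Il22ra1 in the RefSeq order of protein-coding genes on chromosome 4 is Ifnlr1, which encodes the specific chain of the interferon lambda receptor, also paired with Il10rb. Ifnlr1 fell to 1.38 ± 0.307 FPKM in shERO1A cells, against 2.04 ± 0.0353 FPKM in shNC cells (SD, n = 3 each; limma adjusted p = 0.0452), a call lost in 6 of 12 alternatives (range 0.0174 to 0.139).

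Il5ra, the chain that binds IL-5 and is best known on eosinophils and some B cells, had the highest FPKM among the receptor members. It had 19.1, 19.7 and 21.2 FPKM in KD1, KD2 and KD3, against 33.2, 34.5 and 34.95 FPKM in shNC libraries. The groups were far apart. Il5ra averaged 20.0 ± 1.08 FPKM in shERO1A and 34.2 ± 0.895 FPKM in shNC cells (SD, n = 3 each), or 58.3% of the shNC mean (log2 fold change -0.75, SE 0.05, limma adjusted p = 9.44e-05), and kept its call in all 12 alternatives, with adjusted p up to 0.00162. The common beta chain with which it signals in mouse was hardly measured: Csf2rb had 2 to 5 reads in shERO1A and 0 to 1 read in shNC libraries, and Csf2rb2, its close relative, had 5 to 16 reads in shERO1A and 1 to 4 reads in shNC libraries. Il3ra, the IL-3 chain that uses the same partner, had 1 to 6 reads in shERO1A and 2 to 4 reads in shNC libraries.

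Il18rap, a chain of the IL-18 receptor best known on T and NK cells, also fell. It had 11.8, 11.6 and 10.8 FPKM in KD1, KD2 and KD3, against 16.5, 16.1 and 15.9 FPKM in shNC libraries. No library crossed into the other group. The means were 11.4 ± 0.526 FPKM in shERO1A and 16.2 ± 0.310 FPKM in shNC cells (SD, n = 3 each), or 70.6% of the shNC mean (log2 fold change -0.47, SE 0.05, limma adjusted p = 0.000767), with a call in all 12 alternatives (adjusted p up to 0.00777). In the RefSeq order on chromosome 1 Il18rap ends a row of IL-1 family receptor genes that also holds Il1r1 and Il1rl1, neither of which passed a test that included it. Il1rl2 and Il18r1, which lie there too, were not among the genes of the deposited table, so nothing is known here of their levels. Il5ra and Il18rap are known from leukocytes; of the immune markers with a row, Cd68 had 2.04 to 3.05 FPKM, Csf1r 0.101 to 0.409 FPKM, and Ptprc and Itgam at most 0.0663 and 0.0275 FPKM, and their part in these results was not tested.

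Of the other tested receptor chains none passed the test. Il4ra, which binds IL-4, had 18.5, 18.4 and 18.3 FPKM in KD1, KD2 and KD3, against 18.4, 18.1 and 18.4 FPKM in shNC libraries. Its libraries lay closest together among the tested receptors (log2 fold change 0.01, 95% interval -0.09 to 0.10, limma adjusted p = 0.913), and its sign turned with quantile normalization. The partner of Il4ra in the receptor that answers IL-13 is Il13ra1, at 9.25, 9.74 and 11.5 FPKM in KD1, KD2 and KD3, against 11.1, 11.7 and 10.5 FPKM in shNC libraries. KD3 lay among the shNC libraries. With it the log2 fold change of Il13ra1 was -0.12 (limma adjusted p = 0.34), and without it -0.21 (adjusted p = 0.0262), the only call among 12 alternatives (range 0.0262 to 0.617). The other partner of Il4ra, Il2rg, had 3 to 5 reads in shERO1A and 5 to 10 reads in shNC libraries. The decoy chain Il13ra2 had 4 to 11 reads in shERO1A libraries and 0 to 3 reads in shNC libraries.

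For IL-17, both chains of the receptor were present. Il17ra had 6.52, 7.09 and 6.22 FPKM in KD1, KD2 and KD3, against 7.46, 7.88 and 7.21 FPKM in shNC libraries. The groups did not overlap, without a call (log2 fold change -0.16, 95% interval -0.31 to -0.02, limma adjusted p = 0.122). Il17rc had 10.6, 11.9 and 12.3 FPKM in KD1, KD2 and KD3, against 11.7, 13.4 and 11.7 FPKM in shNC libraries, and its groups overlapped (log2 fold change -0.08, 95% interval -0.25 to 0.09, limma adjusted p = 0.499). Il17rd, a relative that also restrains growth factor signalling, had 0.570 to 0.717 FPKM in shERO1A and 0.645 to 0.685 FPKM in shNC libraries. Il17c, an epithelial ligand of the family, had 1 to 10 reads in shERO1A and 2 to 20 reads in shNC libraries.

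For IL-1, the chains were unequal in level. Il1r1, which binds IL-1, had 4.41, 4.22 and 3.96 FPKM in KD1, KD2 and KD3, against 4.19, 3.92 and 4.03 FPKM in shNC libraries, with overlapping groups (log2 fold change 0.04, 95% interval -0.10 to 0.18, limma adjusted p = 0.681). Its log2 fold change was 0.07 without KD3 and 0.01 without KD1. The accessory chain Il1rap, which IL-1, IL-33 and IL-36 receptors all need for signalling, had 1 to 14 reads in shERO1A and 11 to 23 reads in shNC libraries, and at most 0.0444 FPKM. Il1a, a ligand, had 2 to 5 reads in shERO1A and 1 to 5 reads in shNC libraries.

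**Figure D2:**
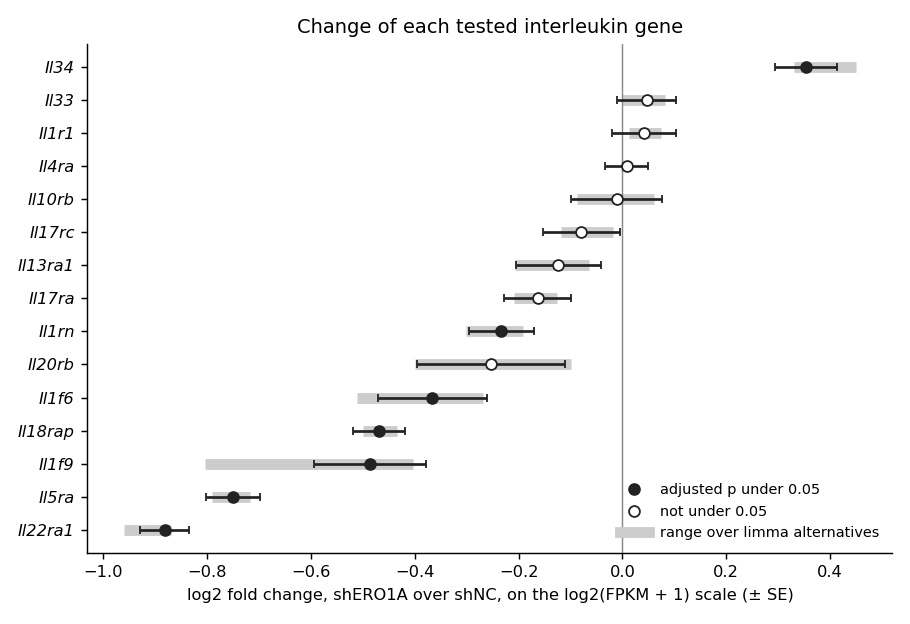
Log2 fold change of shERO1A over shNC for each of the 15 tested interleukin genes, computed on log2(FPKM + 1), with its standard error; filled points have a limma adjusted p under 0.05, and grey bars give the range over the limma alternatives on FPKM. Il22ra1, Il5ra, Il18rap and Il1f9 lie below -0.4 under every one of these alternatives, and Il34 above 0.3. The call of Il1f9 was lost in 3 of 12 alternatives.

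The remaining 21 members averaged below 1 FPKM, and 10 of them averaged 10 reads or more per library. With a filter on reads in place of FPKM, 25 members entered a limma fit of 13015 genes, of which 14.8% were called, 7.77% as higher and 7.06% as lower, and 2 members rose and 6 fell. With no filter, 2 of 36 members rose and 5 fell, where 10.5% of 16217 genes were called, 5.47% as higher and 5.01% as lower. With voom on recovered reads 2 of 25 members rose and 5 fell, where 16.2% of genes were called, 7.79% as higher and 8.39% as lower. By the authors' deposited table, of 36 members 2 were higher and 6 lower at their q under 0.05, where 14.4% of genes passed, 6.92% as higher and 7.49% as lower. Of these 21 members, Il12rb1 and Il24 were called in the fit with the filter on reads, and 7 had groups without overlap, where 19.2% of the 5921 genes below 1 FPKM had such groups.

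Il12rb1, the chain shared by the receptors for IL-12 and IL-23, had 0.578, 0.680 and 0.722 FPKM in KD1, KD2 and KD3, against 0.327, 0.308 and 0.311 FPKM in shNC libraries, or 124 to 160 reads in shERO1A and 66 to 71 reads in shNC libraries. All shERO1A libraries were above all shNC libraries. It stood at 209% of its amount in shNC cells (log2 fold change of FPKM + 1 of 0.33, limma adjusted p = 0.00583). Its call was kept with no filter and with voom (adjusted p = 0.00699 and 0.00859), and its q in the authors' deposited table was 0.000286. On recovered reads, voom gave a log2 fold change of 1.05.

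Il24, an IL-10 family cytokine that can signal through Il22ra1 and Il20rb, had 0.724, 0.466 and 0.633 FPKM in KD1, KD2 and KD3, against 0.992, 1.33 and 1.63 FPKM in shNC libraries, or 20 to 31 reads in shERO1A and 43 to 70 reads in shNC libraries. Each shERO1A library was below each shNC library. It stood at 46.1% of its amount in shNC cells and was called with the filter on reads (log2 fold change -0.52, limma adjusted p = 0.0216) and with no filter (adjusted p = 0.0382), but not with voom on the reads (adjusted p = 0.0651). In the authors' deposited table the q of Il24 was 0.0421.

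Il18 and its binding protein were measured from few reads and were not called. Il18, which needs cleavage by caspase-1, had 0.864, 1.17 and 0.759 FPKM in KD1, KD2 and KD3, against 0.407, 0.453 and 0.681 FPKM in shNC libraries. Its groups did not overlap, with the lowest shERO1A library close to the highest shNC one (limma adjusted p = 0.0596 with the filter on reads). Il18bp, which binds IL-18 and blocks it, had 0.576, 0.655 and 0.334 FPKM in KD1, KD2 and KD3, against 0.720, 0.805 and 0.822 FPKM in shNC libraries (limma adjusted p = 0.117). Those groups did not overlap either, and KD3 was the lowest library. Il7, a growth factor of lymphocytes, had 0.377 to 0.407 FPKM in shERO1A libraries and 0.430 to 0.839 FPKM in shNC libraries (limma adjusted p = 0.164). Il15, the growth factor of NK and memory T cells, had 0.269 to 0.426 FPKM in shERO1A and 0.231 to 0.394 FPKM in shNC libraries, and its groups overlapped. Its presenting chain Il15ra had 2 to 13 reads in shERO1A libraries and 19 to 25 reads in shNC libraries (limma adjusted p = 0.206).

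The lowest members were close to the limit of counting. Il22, the ligand of Il22ra1, had 6, 2 and 0 reads in KD1, KD2 and KD3, against 0 reads in each shNC library, where a count of 0 allows up to 3 reads, or 0.0551 to 0.0559 FPKM. Il7r, the receptor chain for IL-7, had 1, 10 and 0 reads in KD1, KD2 and KD3, against 0, 0 and 1 reads in shNC libraries. Il23a, the specific subunit of IL-23, had 8, 14 and 1 reads in KD1, KD2 and KD3, against 1, 5 and 10 reads in shNC libraries. The groups overlapped in all 3 genes. Il2rb, a chain of the IL-2 and IL-15 receptors, had 3 to 9 reads in shERO1A and 0 to 5 reads in shNC libraries, and Il4i1b had 0 to 6 reads in either group. Of the 36 members, 30 had a read in every library. Such limits cover counting error only, since reads are not independent molecules.

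**Figure D3:**
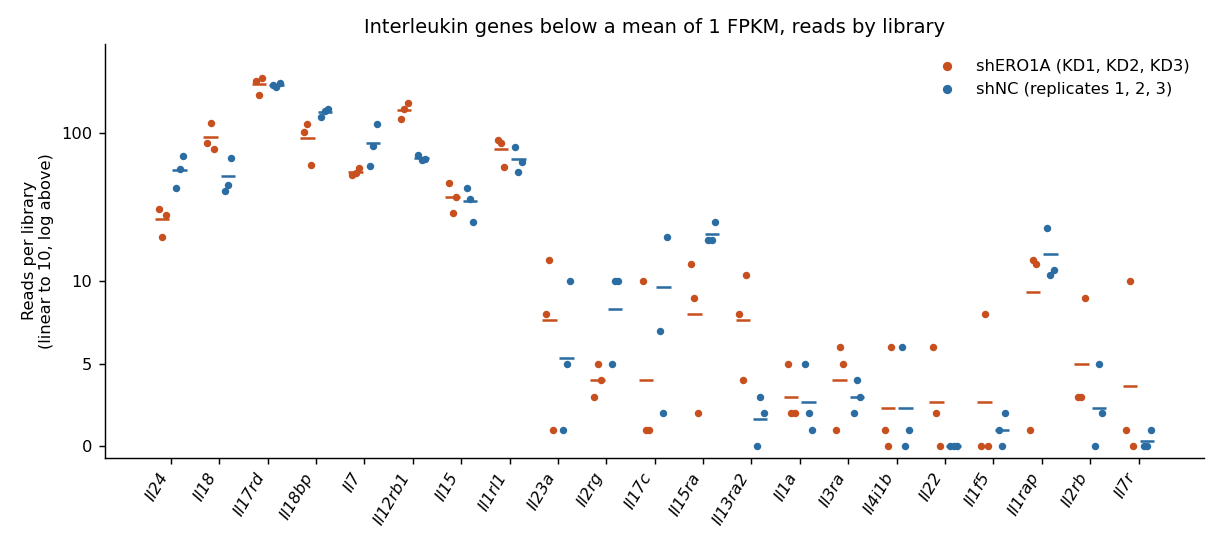
Recovered reads per library for the 21 interleukin genes below a mean of 1 FPKM, on an axis that is linear to 10 reads and logarithmic above, with shERO1A libraries left (orange), shNC libraries right (blue) and lines at group means. Il12rb1 has 124 to 160 reads in shERO1A libraries and 66 to 71 in shNC libraries.

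Downstream of these receptors, changes went both ways; the lists were chosen with earlier results of the same libraries known. Among JAK-STAT kinases and factors, 3 of 10 tested genes, or 30%, were called (median log2 change -0.15), where 17.7% of all genes tested were. Stat6, the factor used by IL-4 and IL-13, fell to 34.2 ± 1.63 FPKM in shERO1A cells, against 40.7 ± 0.0716 FPKM in shNC cells (SD, n = 3 each; limma adjusted p = 0.0105). Jak1, the kinase bound by many of these receptors, fell to 34.0 ± 0.947 FPKM in shERO1A cells, against 38.2 ± 0.634 FPKM in shNC cells (limma adjusted p = 0.0343). No gene of the list was called without shNC replicate 1, 2 or 3, with adjusted p up to 0.0553 for Stat6 and 0.135 for Jak1. Of all genes tested, 9.46%, 9.28% and 9.25% were called in these fits. Without KD2 or KD1, Stat6 was called and Jak1 was not.

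Of 14 tested JAK-STAT inhibitors, 2 rose and none fell (median 0.08), a share of 14.3% called, under the 17.7% of all genes tested. Both are known to be induced by STAT5 in immune cells. Socs2 had 5.73 ± 0.387 FPKM in shERO1A and 3.69 ± 0.0469 FPKM in shNC cells (SD, n = 3 each; limma adjusted p = 0.00133), and was called in all 12 alternatives. Cish had 1.92 ± 0.401 FPKM in shERO1A and 1.04 ± 0.105 FPKM in shNC cells (limma adjusted p = 0.0172). Without KD2 or without shNC replicate 2 or 3, only Socs2 was called among the inhibitors, with adjusted p of Cish up to 0.0735 (range 0.000161 to 0.0735). Of all genes tested, 11.6%, 9.28% and 9.25% were called without these libraries.

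In the IL-1 family signalling and processing list, 2 of 19 tested genes rose and 4 fell (median 0.03). That was a share of 31.6% called, where 17.7% of all genes tested were. Irak3, an inhibitory kinase-like protein of the MyD88 complex, fell to 2.60 ± 0.0404 FPKM in shERO1A cells, against 3.73 ± 0.225 FPKM in shNC cells (SD, n = 3 each; limma adjusted p = 0.00489). Gsdmd, the pore protein through which IL-1 family cytokines can leave the cell, fell to 85.9 ± 5.36 FPKM in shERO1A cells, against 119 ± 1.93 FPKM in shNC cells (limma adjusted p = 0.00105). Casp4, the inflammatory caspase that can cleave Gsdmd, fell to 4.52 ± 0.842 FPKM in shERO1A cells, against 6.90 ± 1.07 FPKM in shNC cells (limma adjusted p = 0.0317), a call lost in 5 of 12 alternatives (range 0.00246 to 0.119). Peli2, an E3 ligase of the same pathway, rose to 2.54 ± 0.223 FPKM in shERO1A cells, against 1.53 ± 0.129 FPKM in shNC cells (limma adjusted p = 0.00506). Only 1 gene of the list rose without KD2 or without shNC replicate 1, 2 or 3, and 3 rose without KD3. Of all genes tested, 11.6% were called without KD2, 9.25% to 9.46% without 1 shNC library and 27.7% without KD3.

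In the list of IL-17 signalling and targets, 6 of 13 tested genes fell and none rose (median -0.20). That was a share of 46.2% called, where 17.7% of all genes tested were. Lcn2, which withholds iron from bacteria, had 3.63 ± 0.742 FPKM in shERO1A and 23.8 ± 1.85 FPKM in shNC cells (SD, n = 3 each; limma adjusted p = 2.14e-05), the largest change among the named genes of the 5 lists. Csf3, the growth factor of neutrophils, had 4.35 ± 0.923 FPKM in shERO1A and 9.28 ± 0.739 FPKM in shNC cells (limma adjusted p = 0.00189). Cxcl5, a chemokine for neutrophils, had 263 ± 12.5 FPKM in shERO1A and 481 ± 8.85 FPKM in shNC cells (limma adjusted p = 5.85e-05). These genes kept their calls in all 12 alternatives. Cebpb, a factor induced by IL-17, had 21.1 ± 0.968 FPKM in shERO1A and 25.0 ± 1.54 FPKM in shNC cells (limma adjusted p = 0.0333) and lost its call in 6 of 12 alternatives (range 0.006 to 0.126). Falls numbered 3 without shNC replicate 1 or 3, 4 without KD1, KD2 or shNC replicate 2, and 8 without KD3, when 2 genes also rose. Of all genes tested, 27.7% were called without KD3, 15.9% without KD1, 11.6% without KD2 and 9.25% to 9.46% without 1 shNC library.

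Among partner receptor chains and relatives with other names, 5 of 9 tested genes fell and none rose (median -0.31). That was a share of 55.6% called, where 17.7% of all genes tested were. Falls numbered 3 without KD2 or without shNC replicate 1 or 2, when 11.6%, 9.46% and 9.28% of all genes were called. Osmr, the oncostatin M chain, fell to 0.706 ± 0.0758 FPKM in shERO1A cells, against 2.15 ± 0.296 FPKM in shNC cells (SD, n = 3 each; limma adjusted p = 0.000618). Osmr passed the filter through its shNC libraries, since its shERO1A mean lay under 1 FPKM. Its fall is no support for the count or for the median, which both include it. Lifr, the chain for leukemia inhibitory factor, fell to 2.02 ± 0.167 FPKM in shERO1A cells, against 3.79 ± 0.122 FPKM in shNC cells (limma adjusted p = 0.000586). Ifngr2, a chain of the interferon gamma receptor, fell to 23.1 ± 1.86 FPKM in shERO1A cells, against 32.9 ± 0.411 FPKM in shNC cells (limma adjusted p = 0.00134). Osmr, Lifr and Ifngr2 kept their calls in all 12 alternatives, and Ifnlr1 is described beside Il22ra1.

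**Figure D4:**
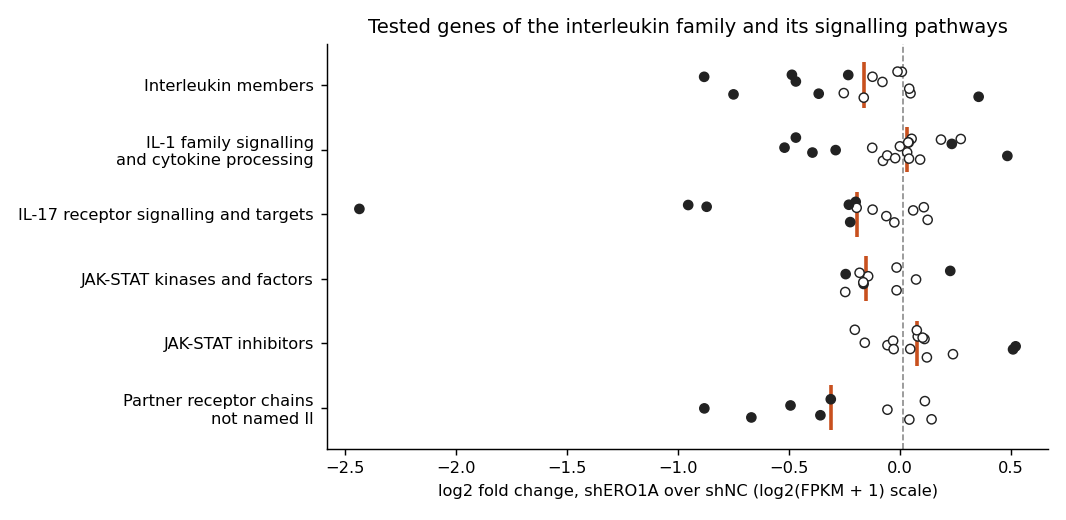
Log2 fold change of shERO1A over shNC for the tested genes of the interleukin family (top) and of 5 lists of its signalling genes; filled points have a limma adjusted p under 0.05, orange bars are list medians and the dashed line is the median of all genes tested (0.01). The interleukin, IL-17, JAK-STAT kinase and partner chain medians lie left of the dashed line, at -0.16, -0.20, -0.15 and -0.31. The interleukin median includes Il1f9 and the partner chain median Osmr, which passed the filter through their shNC libraries.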

How the data were processed

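TRIzol was used to extract RNA, per the labels. The tools HISAT2 2.1.0 and HTSeq 0.11.2 and the genome build mm39 stand in the submitters' processing notes. The annotation and strand setting were not stated there. One table of 16217 genes was deposited by the authors. Its FPKM values carry no unit in the deposited header and were identified by their steps: converted to reads with the base means of the same table, 100% of 97302 values lay within 0.01 of whole reads. The authors' base means are a signal, normalized reads averaged per group, per the file headers. Further columns deposited by the authors hold a fold change (ratio), a log2 fold change, a p-value and a q-value.

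The shNC columns match sample titles; KD1, KD2 and KD3 name their group only. Genes averaging 1 FPKM or more were kept, and log2(FPKM + 1) was compared in R 4.3.3 by limma 3.58.1, with a trend on mean level and no other term. Benjamini-Hochberg adjustment ran over every gene tested, with 0.05 as threshold; the 95% intervals are unadjusted. A count test had been planned for a table of counts, and the limma fit for a table of FPKM, so the limma fit was used. The fit was run on simulated reads with known changes. No simulated library stood apart as KD3 did, so that run cannot show how reliable the calls are in these libraries. Alternatives were quantile normalization, a pseudocount of 0.1, no filter, a filter of 10 reads on average, voom on recovered reads with median-of-ratios scaling (added after the data were seen), the authors' deposited table, and leaving out each library. Members and lists were chosen with earlier results of these data known. The text names all members, and from each list up to 4 called genes with the largest change; 1 such gene is not reported here. Csf1r, Csf2rb and Csf2rb2 were added after their values were seen.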

Additional observations from a re-analysis of the deposited data

How the results depend on the processing

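Over all genes tested the 1823 calls (976 higher, 847 lower) became 1699 to 2338 with another normalization, pseudocount, filter or test, and 952 to 2853 with 1 library left out: 952 to 974 without any 1 shNC library, 1194 without KD2 and 2853 without KD3. Interleukin calls numbered 7 of 15, and 4 to 8 with 1 library left out. Calls in the signalling lists numbered 22 of 65, and 12 to 27 with 1 library left out. Of all genes tested, 17.7% were called, and 9.25% to 27.7% with 1 library left out. Il1f9 is among the 7 and Osmr among the 22, and both passed the filter through their shNC libraries. Of 35 genes followed through the alternatives, 3 uncalled members turned direction. Log2 changes of Il10rb ran from -0.0882 to 0.0601 with 1 library left out, positive without KD2 (0.0601) and shNC replicates 1 (0.0376) and 3 (0.0166). Those of Il33 ran from -0.0017 (without KD3) to 0.0817, and quantile normalization gave -0.0002. Il4ra gave -0.0025 with quantile normalization. The cause was not tested. No paired analysis was possible because the shERO1A columns could be tied to their group but not to a labelled replicate; the replicate block, the test planned for count tables and TMM scaling were not run. Of the 21 members below 1 FPKM, 11 had under 10 reads on average, where only large differences could be detected.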

Other observations

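Psd4, the gene that follows Il1rn in the RefSeq order of protein-coding genes on chromosome 2, is no interleukin and was looked at after the falls of Il1f9, Il1f6 and Il1rn had been seen. It had 0.862, 0.671 and 0.691 FPKM in KD1, KD2 and KD3, against 1.16, 1.11 and 1.33 FPKM in shNC libraries, and all shERO1A libraries were below all shNC libraries. It lay below 1 FPKM on average; its limma adjusted p was 0.0185 with the filter on reads, 0.0305 with no filter and 0.00907 with voom, and its q in the authors' deposited table was 0.000495.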
